A study of Mus musculus with 18 samples.

Results

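The genes described here carry glucose through glycolysis, return carbon by gluconeogenesis, or sense and answer low oxygen, and they were followed from healthy blood progenitors to fractions of a mouse T cell lymphoma. The list names 32 genes. A gene was measured by its brightest probe set that carries no other gene symbol, judged by the mean over 18 arrays, and 30 of the 32 genes had such a probe set, out of 22180 genes on the arrays. The RNA of Gpi1 was not analysed here, though its promoter was searched, and Bnip3l was left out because its probe set is shared with a pseudogene.

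Affymetrix arrays were made from 6 groups of sorted mouse cells, 3 arrays in each. The lymphomas arose in Lck-Cre transgenic mice, in which the Lck promoter drives Cre recombinase in early T cells. These recipients were sublethally irradiated and given bone marrow infected with a retrovirus for NPM-ALK, a fused tyrosine kinase that drives human anaplastic lymphomas. Thymic tumours were collected from moribund mice, the design names 3 lymphomas, and sorting gave 5 fractions, named after the common lymphoid progenitor (CLP) and after thymocytes without CD4 and CD8 at stages DN1, DN2, DN3 and DN4. The comparison group is LSK, lineage-negative SCA1-positive KIT-positive cells from the bone marrow of healthy wild-type mice of 18 months. No lymphoma-free thymocytes were compared. Tissue, age, cell stage, irradiation, marrow transfer and the Lck-Cre transgene therefore cannot be told apart from lymphoma in any contrast with LSK. Description fields of some labels name another genotype and, on 12 arrays, a dose of 4 Gy. The dose stands on LSK replicate 3, on CLP replicates 1 and 2, and on every DN1, DN2 and DN3 array. No DN4 array carries it. The sample titles were followed. The labels do not say whether the arrays of a group came from separate animals, and p values then measure only the spread between these arrays.

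Values are log2 signals, so a difference of 1 is a doubling, and levels are compared between groups for 1 probe set at a time. Arrays of a group correlated with r of 0.968 to 0.993, lowest in CLP, where the median SD of the 30 genes was 0.29 against 0.122 in DN4. The number of arrays limits the precision, and signals under 5.36 to 5.71, the level that 95% of olfactory receptor probe sets stay below on each array, were read as not above background. RNA of lineage markers and sort markers was read in the sorted populations, whose stage names were taken from the titles. All 7 measured T lineage markers were higher in the lymphoma, with a summed linear signal of 19140 to 28770 against 1044 to 1321 in LSK, and all 9 progenitor markers were lower (275.9 to 326.8 against 5013 to 5265). Il7r, which encodes the IL7Rα chain used for the sort, averaged 7.99 in CLP, below its mean in the other lymphoma fractions (8.51 to 9.75). Over the lymphoma arrays Il2ra read 8.09 to 12.14 and Kit 7.90 to 10.90. Cd44 was above background on 6 of 15 and at or below it throughout CLP, DN3 and DN4. Coreceptor RNA was not absent from the fractions: Cd8b1 read 8 to 9.05, and Cd4 was above background on 13 lymphoma arrays and Cd8a on 3. Xist read 3.55, 10.74 and 10.00 on the 3 LSK arrays and 3.81 to 5.03 in the lymphoma. The Y-linked Eif2s3y read 8.42, 7.43 and 4.69 on the same LSK arrays and 8.62 to 9.44 in the lymphoma. Sex-linked RNA thus differed within LSK and between LSK and the lymphoma, and its part in the contrasts with LSK was not tested. In sorted populations measured as bulk RNA, fewer cells of a type and less RNA per cell cannot be told apart.

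Glycolysis splits glucose into pyruvate. Hexokinase traps the sugar, phosphofructokinase commits it, and lactate dehydrogenase with a proton-linked exporter disposes of the product when it does not enter mitochondria. Fructose bisphosphatase runs the phosphofructokinase step backwards, and pyruvate dehydrogenase kinases close the mitochondrial door. Under low oxygen, prolyl hydroxylases stop marking hypoxia inducible factors for destruction, and these factors bind a short core sequence near glucose transporter, enzyme and Vegfa genes. T cells raise glycolysis as they proliferate, and blood stem cells are known for a glycolytic resting state.

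The core bound by hypoxia inducible factors was searched for, as ACGTG or GCGTG on both strands (CACGTG counts on each strand), in the 250 bases before each RefSeq transcription start of build GRCm38.p6. Of the 32 genes 29 matched, with 39 windows, and 30 of these (76.9%) held a core against 38.6% of all 32851 windows. Median GC content was 59.6% in the windows of the listed genes and 52.4% overall. The 5 windows shown belong to the genes with the 3 largest rises against LSK and to Vegfa and Bnip3. These last were the genes called lower among those grouped here as oxygen sensing genes and hypoxia targets. Windows of the other genes that fell are not shown. The sequences run 5′ to 3′ on the gene's strand, with cores in capitals.
Egln3, chr12:54203875-54204124, minus strand: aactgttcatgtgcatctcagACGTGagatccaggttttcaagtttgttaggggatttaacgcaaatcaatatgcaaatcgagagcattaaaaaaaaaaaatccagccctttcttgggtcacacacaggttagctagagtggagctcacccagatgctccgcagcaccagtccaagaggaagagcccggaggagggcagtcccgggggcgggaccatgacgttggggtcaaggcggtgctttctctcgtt
Slc16a1, chr3:104638414-104638663, plus strand: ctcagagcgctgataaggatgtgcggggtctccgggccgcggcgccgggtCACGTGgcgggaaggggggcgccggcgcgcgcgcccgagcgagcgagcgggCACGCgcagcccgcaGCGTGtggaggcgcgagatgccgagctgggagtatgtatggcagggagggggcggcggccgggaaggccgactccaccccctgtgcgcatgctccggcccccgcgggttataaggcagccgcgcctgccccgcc
Bnip3, chr7:138909507-138909756, minus strand: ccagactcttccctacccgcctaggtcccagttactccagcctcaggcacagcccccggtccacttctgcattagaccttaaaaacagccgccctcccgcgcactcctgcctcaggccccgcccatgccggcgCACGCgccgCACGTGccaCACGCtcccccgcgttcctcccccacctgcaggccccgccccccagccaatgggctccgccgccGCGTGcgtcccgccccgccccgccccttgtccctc
Vegfa, chr17:46032378-46032627, minus strand: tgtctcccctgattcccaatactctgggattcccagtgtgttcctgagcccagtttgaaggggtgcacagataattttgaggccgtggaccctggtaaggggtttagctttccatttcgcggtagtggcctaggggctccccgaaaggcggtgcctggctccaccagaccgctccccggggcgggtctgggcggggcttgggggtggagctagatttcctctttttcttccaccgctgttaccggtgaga
Fbp1, chr13:62888283-62888532, minus strand: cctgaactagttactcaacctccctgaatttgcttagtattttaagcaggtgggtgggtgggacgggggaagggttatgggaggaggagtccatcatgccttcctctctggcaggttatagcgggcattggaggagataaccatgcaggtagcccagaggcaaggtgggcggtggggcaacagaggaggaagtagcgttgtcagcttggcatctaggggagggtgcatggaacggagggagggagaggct
The windows hold 1 core for Egln3, 4 for Slc16a1, 5 for Bnip3 and 0 for Fbp1. Vegfa is shown at its start farthest upstream, with 0 cores, and the window of its other listed start, inside the locus, holds 2. A match is a string of letters, not a bound site, and its absence speaks only for these windows.

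Against LSK, the lymphoma as a whole held more RNA for Pfkl, Pfkm, Gapdh, Ldha, Ldhb, the lactate transporter Slc16a1, Pdk1, Fbp1 and the prolyl hydroxylases Egln1 and Egln3, and less for Slc2a1, the hexokinases Hk1 and Hk2, the enolases Eno2 and Eno3, Pdk3, Pfkfb3, Bnip3 and Vegfa. The mean of the 5 fractions was taken for each replicate number and set against the 3 LSK arrays with limma, at a Benjamini-Hochberg adjusted p under 0.05 over all genes. Of the 30 measured genes 19 passed, 10 higher and 9 lower. Of all genes 29% passed, 13.1% higher and 15.8% lower. Many of those genes are near background, and among the 12548 genes above the array median on at least 3 arrays, as all 30 are, 42.2% passed. The median difference of the 30 genes was -0.02 and that of all genes 0.06, so the list showed no common direction. No overlap between the lymphoma values and the LSK arrays was found for 19 of the 30 genes and for 44.7% of all genes.

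Each fraction was also compared with the same 3 LSK arrays, so these comparisons share their controls. In CLP 16 of the 30 genes passed against 17.7% of all genes, 7 of them higher (6.54% of all genes) and 9 lower (11.2%). The 15 genes that passed in DN1, against 19.7% of all genes, were 6 higher (7.45%) and 9 lower (12.3%). For DN2 the count was 20 against 25.4%, with 10 higher (11.4%) and 10 lower (14%). It was 18 for DN3 against 24.5%, with 9 higher (11.4%) and 9 lower (13.1%). DN4 likewise had 18 against 26.6%, with 8 higher (11.8%) and 10 lower (14.9%). Arrays did not overlap with LSK for 20 of the 30 genes in CLP (36.7% of all genes), for 17 in DN1 (35%) and 21 in DN2 (39.5%), and for 20 in DN3 (39%) and 18 in DN4 (41.9%). Slc16a1, Pdk1, Fbp1 and Egln3 were higher and Hk1, Eno2, Eno3, Pfkfb3, Bnip3 and Vegfa lower in every fraction. Ndrg1 and Pfkp passed in opposite directions in different fractions. The CLP count fell to 10 without LSK replicate 1 or without LSK replicate 2.

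**Figure D1:**
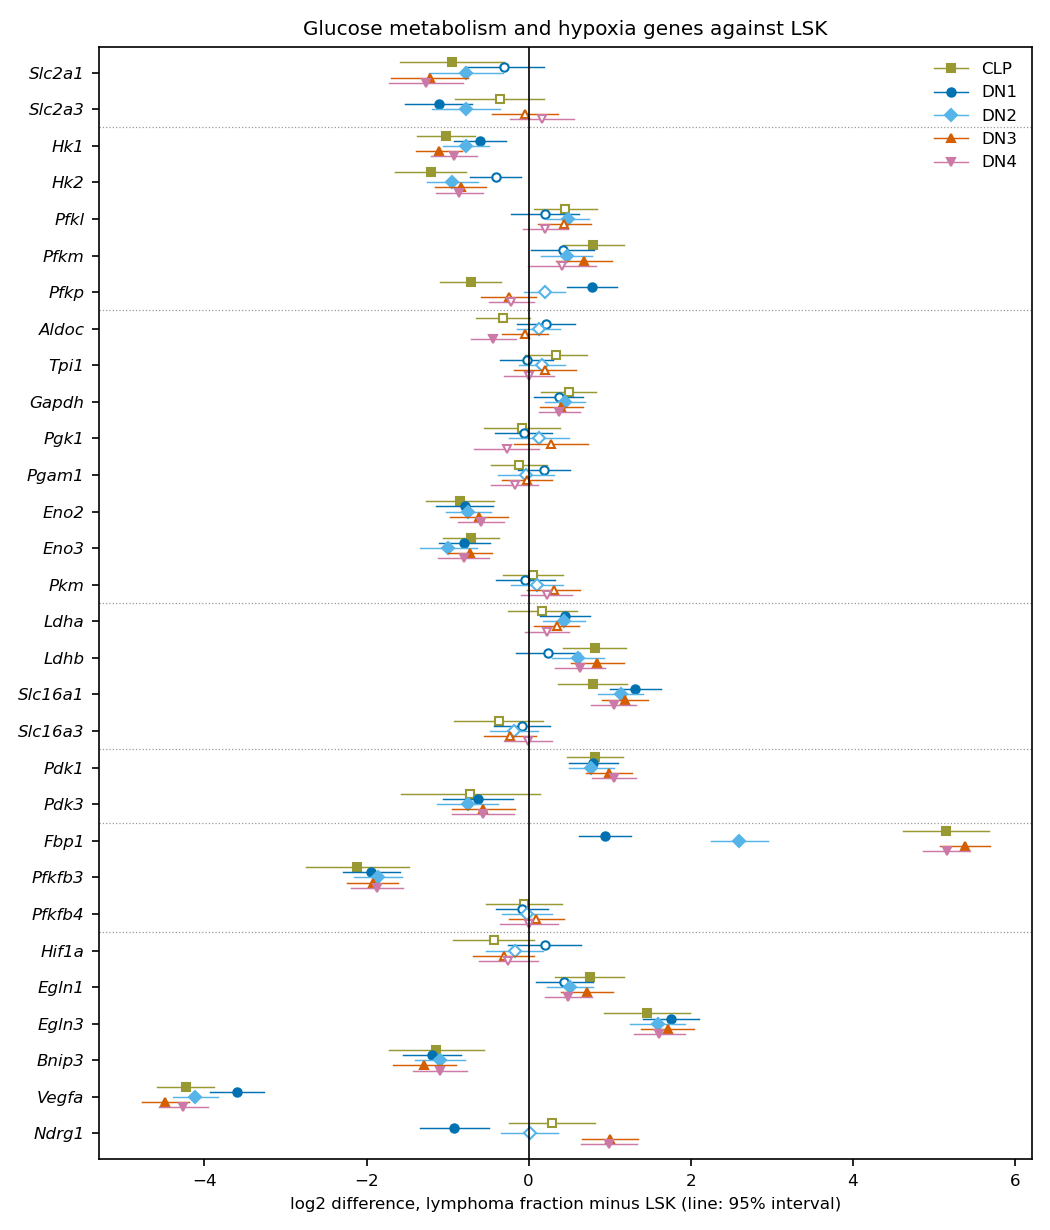
Log2 difference from LSK of each measured gene in each lymphoma fraction, with its 95% limma interval; filled symbols passed the adjusted p threshold, open symbols did not, and dotted lines separate the roles. Fbp1 runs from 0.94 in DN1 to 5.38 in DN3, and Vegfa lies between -4.48 and -3.60 in every fraction.

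The first step is glucose uptake, and Slc2a1 and Slc2a3 encode the main glucose transporters of blood cells. Slc2a1 (chromosome 4, probe set 17417844) read 10.07, 9.48 and 10.45 in LSK. In the lymphoma it read 8.58, 9.34 and 9.23 in CLP, 9.55, 9.69 and 9.86 in DN1, 9.07, 9.28 and 9.33 in DN2, 8.62, 8.89 and 8.82 in DN3, and 8.71, 8.81 and 8.68 in DN4. The DN1 arrays lay within the LSK range and all other lymphoma arrays below it. Over all fractions Slc2a1 was 1.87-fold lower (log2 difference -0.90, SE 0.21, adjusted p = 0.0107 by limma, 3 against 3 values). It passed in CLP (-0.95), DN2 (-0.77), DN3 (-1.22) and DN4 (-1.27), and in DN1 the difference was -0.30 with a 95% interval of -0.79 to 0.19. The CLP call had an adjusted p of 0.0491 and was lost, at 0.0589 to 0.17, without LSK replicate 1 or 3 or any 1 of the CLP arrays, and the DN2 call without DN2 replicate 1 (0.0717). A dimmer Slc2a1 probe set, at 4.64 to 5.44 in all groups, was near background, and with the mean of both probe sets the CLP and DN2 calls were lost (0.559 and 0.064).

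Slc2a3 (chromosome 6, probe set 17470597) followed another order. It read 8.33, 7.84 and 8.62 in LSK, 8.01, 7.53 and 8.16 in CLP, 7.10, 7.21 and 7.14 in DN1, 7.25, 7.58 and 7.64 in DN2, 8.27, 8.25 and 8.13 in DN3, and 8.34, 8.53 and 8.40 in DN4. DN1 and DN2 lay below all LSK arrays, while CLP, DN3 and DN4 overlapped them. It was lower than LSK in DN1 (-1.11, adjusted p = 0.00143 by limma) and DN2 (-0.77, adjusted p = 0.0105, and 0.0534 without DN2 replicate 1). In DN3 the difference was -0.04 (interval -0.45 to 0.36) and in DN4 0.16 (-0.23 to 0.56). From DN2 to DN3 Slc2a3 rose by 0.73 (SE 0.16, adjusted p = 0.0144), a call lost without DN2 replicate 1 (0.114), DN3 replicate 1 (0.0764) or DN3 replicate 2 (0.0578).

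At the hexose phosphate steps, both hexokinases fell and the phosphofructokinase forms moved apart. Of 5 measured genes 2 were higher and 2 lower, beside 13.1% higher and 15.8% lower over all genes. Hk1 (chromosome 10) ranged from 7.33 to 7.62 in LSK and from 6.25 to 6.95, median 6.56, over the 15 lymphoma arrays. The groups did not overlap, and Hk1 was 1.85-fold lower (-0.88, SE 0.11, adjusted p = 0.000181 by limma) and lower in all 5 fractions, from -0.60 in DN1 to -1.10 in DN3 (in DN1 the adjusted p rose from 0.0126 to 0.0654 without LSK replicate 1). Hk2 (chromosome 6), the inducible hexokinase, read 7.12 to 7.29 in LSK and 5.60 to 6.99, median 6.33, in the lymphoma, again with no overlap. It was 1.80-fold lower (-0.85, SE 0.10, adjusted p = 0.000167). In DN1 the Hk2 difference was -0.41, with an adjusted p of 0.0729 and an interval of -0.72 to -0.09.

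Phosphofructokinase is built from the liver, muscle and platelet forms Pfkl, Pfkm and Pfkp. Pfkp (chromosome 13, probe set 17290324) read 8.68, 8.77 and 8.87 in LSK, 8.22, 8.16 and 7.78 in CLP, 9.46, 9.71 and 9.50 in DN1, 8.96, 8.98 and 8.96 in DN2, 8.59, 8.75 and 8.23 in DN3, and 8.70, 8.51 and 8.47 in DN4. DN1 and DN2 lay above every LSK array and CLP below. Pfkp was higher in DN1 (0.78, SE 0.14, adjusted p = 0.00196 by limma) and lower in CLP (-0.72, SE 0.17, adjusted p = 0.0172, and 0.0519 to 0.0722 without any 1 LSK array), which left a mean difference of -0.04 over all fractions. Pfkm (chromosome 15) read 5.82, 5.69 and 5.38 in LSK, 1 of the 3 not above background, and 5.76 to 6.55 in the lymphoma. It was higher by 0.55 (SE 0.13, adjusted p = 0.0118, and 0.059 without lymphoma replicate 1) and passed in CLP (0.80), DN2 (0.47) and DN3 (0.68); the DN2 call was lost, at 0.055 to 0.129, without any 1 of the DN2 arrays or LSK replicate 2 or 3. Pfkl (chromosome 10) was higher by 0.35 with an adjusted p of 0.0473, a call lost in 4 of 6 fits that left out 1 value (0.0895 to 0.195: without lymphoma replicate 1 or 2, or LSK replicate 2 or 3). Of the single fractions Pfkl passed in DN2, at 0.48 (adjusted p = 0.00984).

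From the triose phosphates to pyruvate, 3 of 8 genes (37.5%) passed against LSK, beside 29% of all genes and 42.2% of genes above the array median. The enolase genes on the list, Eno2 (chromosome 6) and Eno3 (chromosome 11), were lower in every fraction. Enolases make phosphoenolpyruvate, and these forms are best known from neurons and muscle. Other enolase genes were not read here. Eno2 read 6.02, 6.31 and 6.34 in LSK and 5.10 to 5.90 in the lymphoma, where 7 of 15 arrays were above background, and differed by -0.72 (SE 0.12, adjusted p = 0.00117 by limma). Eno3 read 8.74, 8.69 and 8.54 in LSK and 7.31 to 8.13 in the lymphoma, a fall by 0.80 (SE 0.11, adjusted p = 0.000441). Neither enolase overlapped between LSK and lymphoma arrays. In CLP the Eno2 call was lost without LSK replicate 2 or 3 (0.0615 and 0.0596) and the Eno3 call without LSK replicate 1 or 2 (0.0586 and 0.0525), and in DN3 the Eno2 call without LSK replicate 2 or 3 or DN3 replicate 1 (0.0541 to 0.0847).

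Gapdh, the enzyme that makes NADH in glycolysis, was the 1 gene of these 8 that rose. It read 11.87, 11.84 and 11.75 in LSK and 12.10 to 12.43 in the lymphoma, with no overlap, a difference of 0.42 (SE 0.09, adjusted p = 0.00687 by limma). Of the single fractions it passed in 3. The DN3 and DN4 calls were lost without any 1 LSK array or any 1 array of the fraction (limma adjusted p 0.0591 to 0.083 in DN3, 0.0536 to 0.0865 in DN4). With quantile normalization both were lost as well (0.0637 and 0.0672). Pseudogenes nearly identical to Gapdh are numerous, so its value is uncertain, though all of its single-symbol probe sets were higher in the lymphoma. Tpi1 (0.14, interval -0.12 to 0.39), Pgk1 (-0.00, -0.33 to 0.32), Pgam1 (-0.03, -0.28 to 0.22) and Pkm (0.13, -0.16 to 0.41) did not pass in any comparison with LSK. They were among the brighter probe sets, at 8.82 to 11.07 on every lymphoma array, and overlapped LSK in each fraction except for Tpi1 in CLP, where every array lay above LSK (0.34, adjusted p = 0.223 by limma). Pgk1 lies on the X chromosome, where Xist RNA differed between the LSK arrays. Aldoc (chromosome 11), an aldolase form, was lower in DN4 (-0.44, adjusted p = 0.0233) and showed -0.09 over all fractions. Its DN4 arrays read 5.41, 5.63 and 5.60, with 1 of 3 above background, against 6.03, 5.86 and 6.07 in LSK, and the call was lost without LSK replicate 1 (0.0708), LSK replicate 3 (0.0618) or DN4 replicate 1 (0.0891).

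Of the 4 genes of lactate formation and transport 3 were called higher, beside 13.1% of all genes, and the call of Ldha among them was unstable. The median difference of the 4 genes was 0.48. Slc16a1 (chromosome 3, probe set 17401335), the monocarboxylate transporter that carries lactate with a proton, read 7.46, 7.38 and 7.19 in LSK. It read 7.79, 8.37 and 8.26 in CLP, 8.55, 8.62 and 8.82 in DN1, 8.61, 8.48 and 8.37 in DN2, 8.59, 8.53 and 8.50 in DN3, and 8.48, 8.43 and 8.29 in DN4. Every lymphoma array was above every LSK array, and the lowest was CLP replicate 1. Slc16a1 was 2.14-fold higher (1.10, SE 0.10, adjusted p = 3.24e-05 by limma) and passed in all 5 fractions, from 0.79 in CLP to 1.32 in DN1. The CLP call (adjusted p = 0.0188) was lost, at 0.0509 to 0.0804, without any 1 LSK array or without CLP replicate 2 or 3.

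Ldhb (chromosome 6), the lactate dehydrogenase subunit that favours pyruvate, read 7.45, 7.35 and 7.77 in LSK and 7.51 to 8.52, median 8.22, in the lymphoma. It rose by 0.63 (SE 0.12, adjusted p = 0.00401 by limma) and passed in CLP, DN2, DN3 and DN4 (0.61 to 0.85), although the CLP call was lost without LSK replicate 1 (0.0533) or 2 (0.0547). In DN1 Ldhb differed by 0.24, where its arrays at 8.07, 7.70 and 7.51 overlapped LSK. Ldha (chromosome 7), the subunit that favours lactate, read 7.63, 7.79 and 7.58 in LSK and 7.61 to 8.24 in the lymphoma. Its difference of 0.32 (SE 0.11) passed with an adjusted p of 0.0454 and was lost in 5 of 6 fits that left out 1 value, at 0.0842 to 0.19; the exception was LSK replicate 2. Slc16a3, the exporter typical of highly glycolytic cells, differed by -0.17 (interval -0.45 to 0.10) and did not pass in any fraction.

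**Figure D2:**
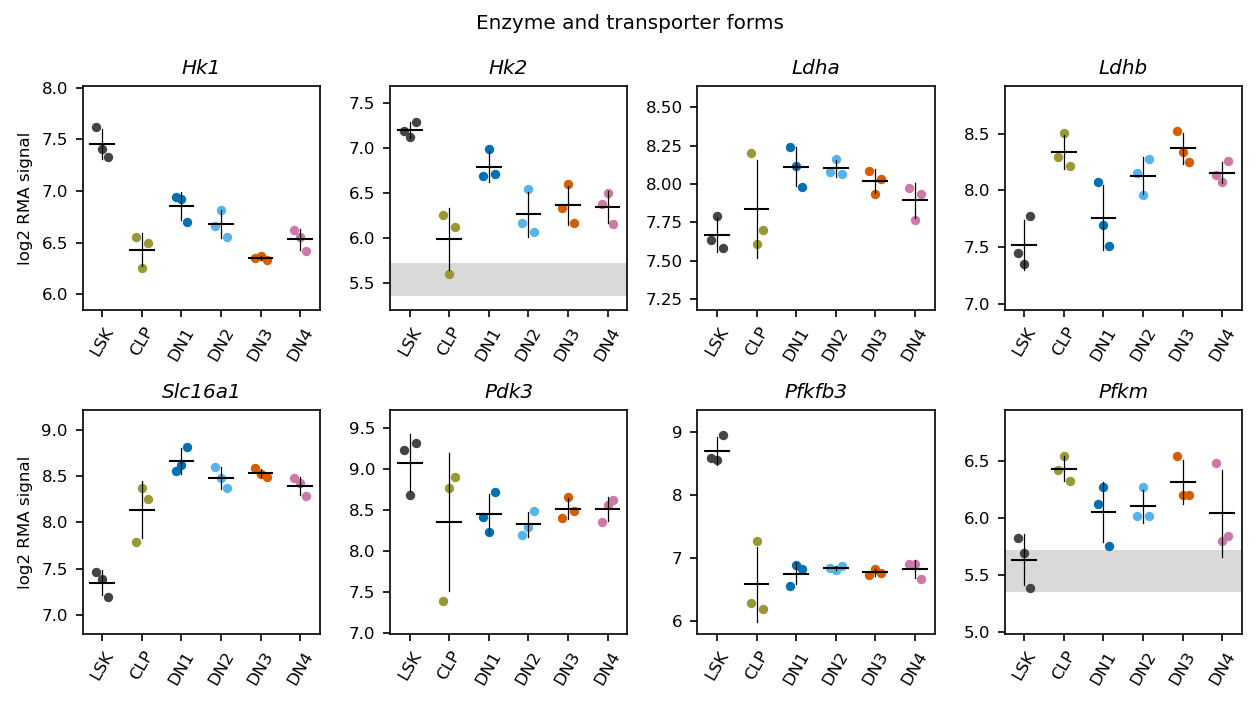
Log2 signal on each array (points), group mean (horizontal line) and SD (vertical line, n = 3) for 8 enzyme and transporter genes; grey marks the range over arrays of the background level. Hk1, Hk2 and Pfkfb3 are lower and Slc16a1 higher in every lymphoma array than in every LSK array.

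The pyruvate dehydrogenase kinases, which phosphorylate and switch off pyruvate dehydrogenase, changed in opposite directions. Pdk1 (chromosome 2, probe set 17371847) read 6.83, 6.75 and 6.58 in LSK. In the lymphoma it read 7.39, 7.56 and 7.65 in CLP, 7.50, 7.46 and 7.60 in DN1, 7.39, 7.61 and 7.48 in DN2, 7.63, 7.68 and 7.82 in DN3, and 7.86, 7.72 and 7.74 in DN4. No array overlapped, and Pdk1 was 1.85-fold higher (0.89, SE 0.10, adjusted p = 0.000138 by limma), from 0.78 in DN2 to 1.06 in DN4. Pdk3 (X chromosome) read 9.23, 8.68 and 9.32 in LSK and 7.39 to 8.91, median 8.49, in the lymphoma, with CLP replicate 1 lowest. Its fall by 0.64 (SE 0.19) had an adjusted p of 0.0271, which became 0.0598 to 0.111 without lymphoma replicate 1 or 2 or LSK replicate 1 or 3. Of the single fractions it passed in DN1, DN2, DN3 and DN4, and not in CLP. These calls were all lost with 18 arrays in 1 limma model (adjusted p 0.063 to 0.175). The DN1, DN3 and DN4 calls were also lost without LSK replicate 1 or 3 (0.0942 to 0.159). The lowest Pdk3 value in LSK was on replicate 2, where Xist read 10.74, and the part of sex-linked RNA in the Pdk3 difference was not tested.

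Control of fructose bisphosphate held the largest rise of the list and a large fall. Fbp1 (chromosome 13, probe set 17293557), fructose bisphosphatase, the gluconeogenic enzyme that opposes phosphofructokinase, read 5.06, 4.94 and 4.68 in LSK, where no array was above background. It read 9.55, 10.14 and 10.44 in CLP, 5.73, 5.92 and 5.85 in DN1, 7.22, 7.49 and 7.77 in DN2, 10.31, 10.33 and 10.19 in DN3, and 10.02, 10.01 and 10.12 in DN4. DN1 was lowest, DN2 intermediate and the other fractions high, with no overlap between DN1, DN2 and the rest. Since LSK was at background, folds are lower bounds, with each LSK array set to the higher of its own background level and its value. Fbp1 was at least 9.81-fold higher over all fractions (adjusted p = 3.47e-08 by limma). For single fractions Fbp1 was at least 24.25-fold higher in CLP, 1.31-fold in DN1, 4.13-fold in DN2, 28.45-fold in DN3 and 24.3-fold in DN4.

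Pfkfb3 (chromosome 2, probe set 17381630), which makes the activator of phosphofructokinase, moved the other way. It read 8.59, 8.55 and 8.95 in LSK, 6.29, 7.26 and 6.20 in CLP, 6.56, 6.88 and 6.82 in DN1, 6.84, 6.81 and 6.88 in DN2, 6.73, 6.83 and 6.76 in DN3, and 6.91, 6.91 and 6.66 in DN4. All lymphoma arrays lay more than 1 log2 unit below all LSK arrays. Pfkfb3 was 3.84-fold lower (-1.94, SE 0.13, adjusted p = 3.99e-06 by limma), from -2.11 in CLP to -1.85 in DN2. Pfkfb4, the related enzyme, differed by -0.01 (interval -0.25 to 0.23) at 5.35 to 6.05, near background.

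Among oxygen sensing genes and hypoxia targets, the prolyl hydroxylases Egln1 and Egln3 rose while Vegfa and Bnip3 fell. Hif1a (chromosome 12), the oxygen-regulated subunit, read 9.61, 9.13 and 9.75 in LSK and 8.82 to 10.04 in the lymphoma, a difference of -0.19 (interval -0.56 to 0.17) that did not pass in any fraction. These arrays measure RNA, while the subunit is controlled mainly as protein. Egln3 (chromosome 12, probe set 17281084), a prolyl hydroxylase that is itself induced by hypoxia, read 8.65, 8.55 and 8.99 in LSK. It read 9.69, 10.50 and 10.37 in CLP, 10.55, 10.56 and 10.35 in DN1, 10.09, 10.41 and 10.45 in DN2, 10.59, 10.37 and 10.37 in DN3, and 10.23, 10.43 and 10.36 in DN4. All lymphoma arrays were above LSK, and Egln3 was 3.09-fold higher (1.63, SE 0.13, adjusted p = 1.08e-05 by limma), from 1.46 to 1.76 over the fractions. Egln1 (chromosome 8), the main prolyl hydroxylase, read 7.45, 7.07 and 7.30 in LSK and 7.50 to 8.32 in the lymphoma, with no overlap. It rose by 0.58 (SE 0.11, adjusted p = 0.00389) and passed in 4 fractions, with 0.44 and an adjusted p of 0.0781 in DN1. Its calls were lost without LSK replicate 2 in CLP (0.101), DN2 (0.0529) and DN4 (0.0703), and also without LSK replicate 3 or CLP replicate 3 in CLP (0.0709 and 0.0536), DN2 replicate 2 in DN2 (0.0545), and DN4 replicate 2 or 3 in DN4 (0.0603 and 0.0601).

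Vegfa (chromosome 17, probe set 17345293), the vascular growth factor, showed the largest fall of the list. It read 10.01, 10.36 and 10.20 in LSK, 6.003, 6.03 and 5.84 in CLP, 6.69, 6.41 and 6.67 in DN1, 6.14, 6.04 and 6.05 in DN2, 5.70, 5.67 and 5.74 in DN3, and 5.88, 6.11 and 5.80 in DN4. The lymphoma arrays were all far below LSK but still above background. Vegfa was 17.6-fold lower (-4.14, SE 0.11, adjusted p = 9.92e-09 by limma), from -3.60 in DN1 to -4.48 in DN3. Bnip3 (chromosome 7, probe set 17497421), a mitophagy receptor induced by hypoxia, read 6.26, 5.82 and 5.83 in LSK and 4.38 to 5.37 in the lymphoma, where none of 15 arrays was above background. Bnip3 was thus at least 1.32-fold lower (adjusted p = 0.000144 by limma), and its CLP call was lost without LSK replicate 1 (0.0735). Marker lists of the granulocyte, erythroid and megakaryocyte lineages fell too. The summed signal of 10 granulocyte markers was 3916 to 5987 in LSK and 287.7 to 543.1 in the lymphoma. That of 6 erythroid and megakaryocyte markers was 1584 to 1995 and 182.8 to 244.7. Of the granulocyte markers Elane (10.6 to 10.7) and Mpo (10.0 to 10.6) were bright in LSK, while Ly6g (4.42 to 4.60) was not above background. Which cells held this RNA was not tested. The part of these markers in the Vegfa and Bnip3 falls was not tested either.

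**Figure D3:**
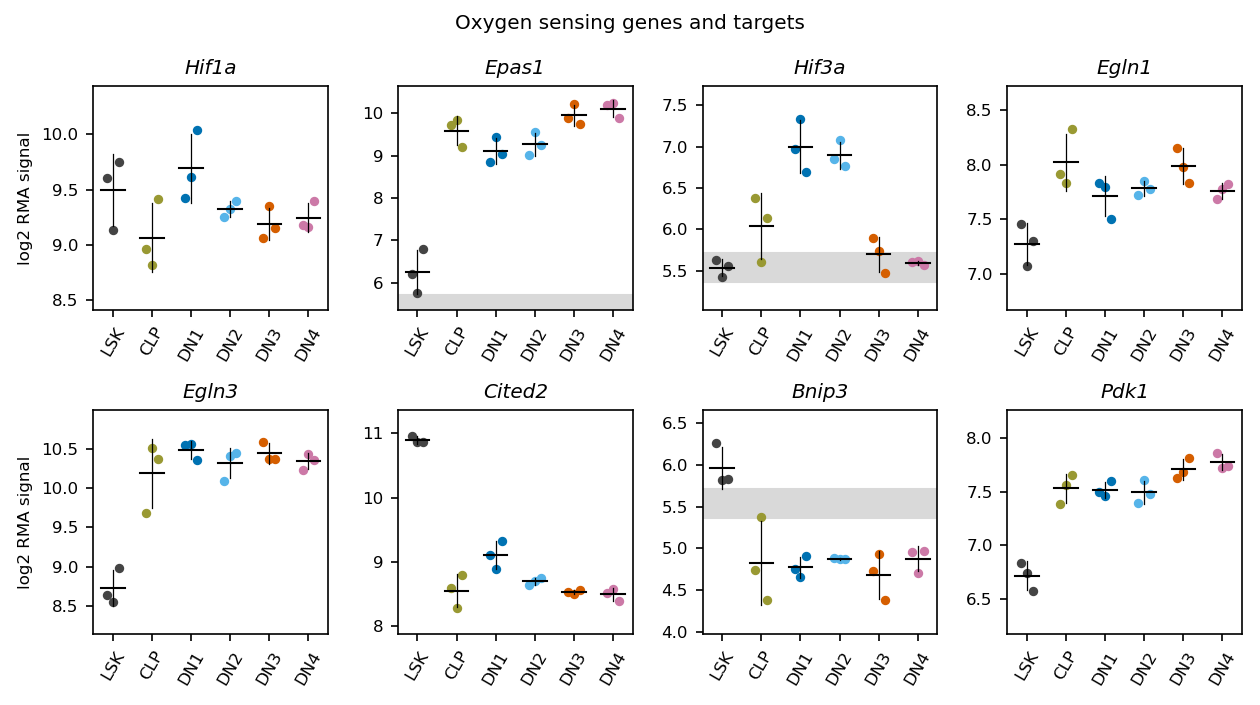
Log2 signal on each array (points), group mean (horizontal line) and SD (vertical line, n = 3) for genes of oxygen sensing and of the response to it; grey marks the range over arrays of the background level. Epas1, Egln3 and Pdk1 are higher and Cited2 and Bnip3 lower in every lymphoma array than in every LSK array.

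Among the 5 lymphoma fractions, 7 of the 30 genes differed by the limma F test over 15 arrays, against 7.88% of all genes and 13% of genes above the array median. The span, the highest fraction mean minus the lowest, was 4.44 for Fbp1 (adjusted p = 6.91e-11), 1.92 for Ndrg1 (6.87e-06), 1.5 for Pfkp (3.76e-05), 1.27 for Slc2a3 (0.000111), 0.97 for Slc2a1 (0.00542), 0.89 for Vegfa (0.0015) and 0.65 for Aldoc (0.0201). The median span was 0.36 in the 30 genes and 0.32 in all genes. DN1 stood at an end of the order for all 7 genes, lowest for Fbp1, Ndrg1 and Slc2a3 and highest for Pfkp, Slc2a1, Vegfa and Aldoc. The Aldoc call was lost without DN4 replicate 1 (0.07), and Aldoc was above background on 12 of 15 lymphoma arrays. In these comparisons LSK does not enter. Hk1 (adjusted p = 0.0901), Hk2 (0.0867) and Ldhb (0.0807) were nearest to the threshold among the genes that did not pass.

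Ndrg1 (chromosome 15, probe set 17317652), a stress response gene induced by hypoxia, changed sign against LSK along the fractions. It read 9.40, 8.85 and 9.02 in LSK, 8.91, 9.60 and 9.61 in CLP, 8.19, 8.45 and 7.87 in DN1, 9.08, 9.30 and 8.92 in DN2, 10.09, 10.15 and 10.03 in DN3, and 10.09, 10.22 and 9.92 in DN4. DN1 lay below all LSK arrays, DN3 and DN4 above, and CLP and DN2 overlapped them. Ndrg1 was lower in DN1 (-0.92, SE 0.19, adjusted p = 0.00559 by limma) and higher in DN3 (1.00, adjusted p = 0.000585) and DN4 (0.99, adjusted p = 0.000638). A dimmer Ndrg1 probe set was likewise lowest in DN1 and higher in DN3 and DN4 than in DN2, with means of 5.86 (DN1), 6.18 (DN2), 6.82 (DN3) and 6.83 (DN4), and with the mean of both probe sets the DN1 fall was no longer called (adjusted p = 0.118).

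Between neighbouring stages, 2 of the 30 genes changed from DN1 to DN2, both higher, against 1.35% of all genes (0.708% higher, 0.645% lower). Arrays did not overlap for 8 of the 30 genes and 14.5% of all genes. Fbp1 rose by 1.66 (SE 0.19, adjusted p = 0.000125 by limma) and Ndrg1 by 0.93 (SE 0.19, adjusted p = 0.0165). The Ndrg1 step was lost without DN1 replicate 1 (0.0581), DN1 replicate 3 (0.102), DN2 replicate 1 (0.0612) or DN2 replicate 2 (0.118), and with the mean of both probe sets (0.301). From DN2 to DN3 3 of the 30 genes rose and none fell, against 2.45% of all genes (1.3% higher, 1.15% lower). Again 8 of the 30 did not overlap, against 16.2% of all genes. Fbp1 rose by 2.78 (SE 0.19, adjusted p = 5.75e-08), Ndrg1 by 0.99 (SE 0.19, adjusted p = 0.00526, and 0.0621 with the mean of both probe sets) and Slc2a3 by 0.73. From DN3 to DN4 limma called 0 of the 30 genes, against 0.00451% of all genes (1 of 22180), and 8 of the 30 did not overlap, against 11.5%. At an unadjusted p under 0.05 these numbers were 2 of 30, Aldoc and Pgk1, and 659 of 22180. Fbp1 differed by -0.23 in that step (interval -0.62 to 0.17).

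CLP was set against the mean of DN1 to DN4, and 2 of the 30 genes passed, 1 higher and 1 lower, against 4.44% of all genes (1.51% higher, 2.93% lower). Arrays did not overlap for 1 of the 30 genes and 2.25% of all genes. Fbp1 was higher in CLP by 1.63 (SE 0.15, adjusted p = 1.21e-05 by limma) and Pfkp fell by 0.85 (SE 0.12, adjusted p = 0.00091). Fbp1 in CLP overlapped DN3 and DN4 and lay above DN1 and DN2. Without CLP replicate 1, the lowest CLP array for Pdk3, Slc16a1 and Fbp1, 5 of the 30 genes passed.

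**Figure D4:**
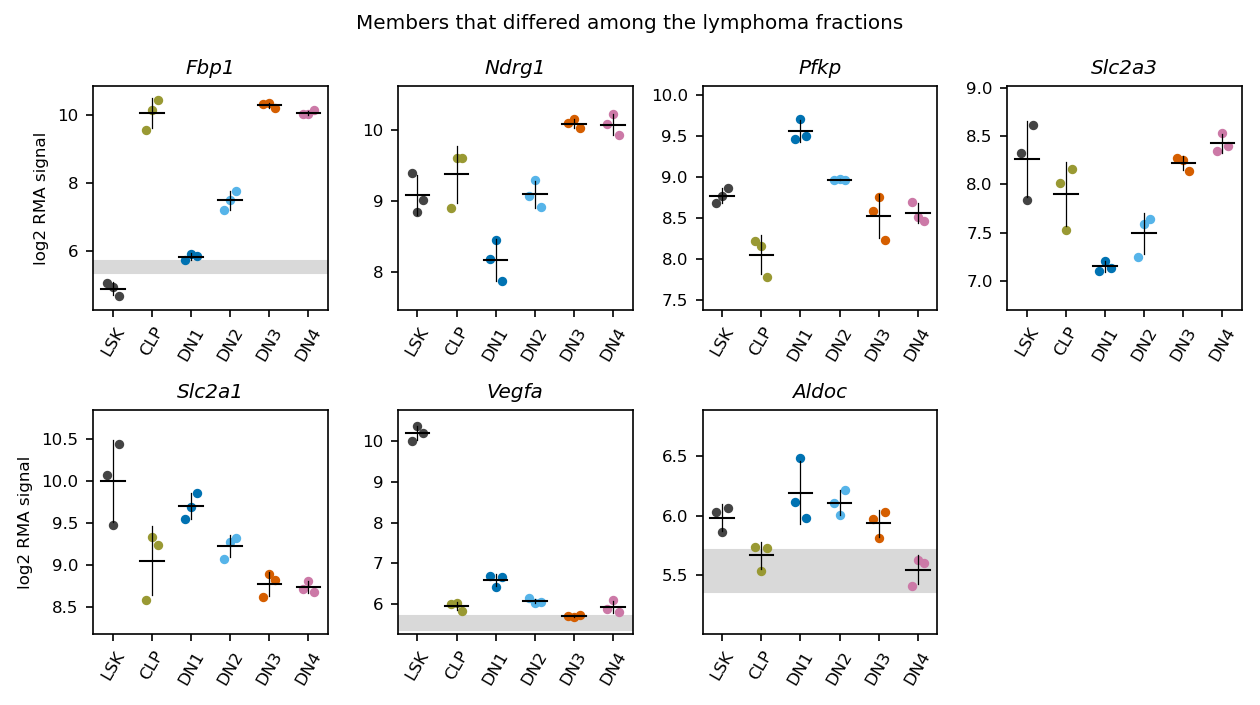
Log2 signal on each array (points), group mean (horizontal line) and SD (vertical line, n = 3) for the 7 genes that differed among the lymphoma fractions; grey marks the range over arrays of the background level. Fbp1, Ndrg1 and Slc2a3 are lowest in DN1 among the fractions, and Pfkp, Slc2a1 and Vegfa are highest there.

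Markers of other cells also varied among the fractions. The summed linear signal of 14 macrophage and monocyte markers was 2439 to 2882 in DN1, 1446 to 1803 in DN2, 941.5 to 1174 in CLP, 958.5 to 1063 in DN3 and 962.6 to 1009 in DN4, the reverse of the Fbp1 order from DN1 to DN3. The sum of 7 B and plasma cell markers was 704.9 to 890.4 in DN1 and 350.3 to 482.3 in the other fractions. Of these 7, Jchain reached 8.77 in the lymphoma and was at or below background throughout CLP, DN2, DN3 and DN4. Jchain was above background on 3 of 15 lymphoma arrays, Ms4a1 and Ebf1 on 0, Cd79b on 1 and Cd79a on 2. Pax5 was above it on 7 and Sdc1 on 15. T lineage markers summed to 19140 to 21580 in DN1 and 27180 to 28690 in DN3. Of these macrophage markers Mrc1 and Ly6c2 differed among the fractions, while the defining Csf1r (4.95 to 5.73) and Adgre1 (4.16 to 5.00) were at or near background on all lymphoma arrays. The part of these markers in the DN1 differences was not tested.

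The rest of the pathway was read from lists of related genes, shown in the plot of calls per list. Beside the counts that follow, 13.1% of all genes were called higher and 15.8% lower. Among genes above the array median 42.2% were called. Of 10 other glycolysis enzymes 3 were higher and 3 lower. Pgam2, the muscle mutase, was below background in LSK and at least 1.29-fold higher in the lymphoma, with a span of 1.07 among fractions (adjusted p = 0.00406 by limma). Gapdhs and Ldhc, forms known from sperm, were called higher as well, but Gapdhs was above background on 0 of 18 arrays and Ldhc on 6 of 15 lymphoma and 0 of 3 LSK arrays, which leaves Ldhc at least 1.03-fold higher. Hk3, a hexokinase of myeloid cells, was called lower with 2 of 15 lymphoma arrays above background, and was at least 1.38- to 1.47-fold lower in DN1 to DN3. Bpgm (-0.78), which makes bisphosphoglycerate, and Pklr (-0.30), the liver and red cell pyruvate kinase, fell. Gapdhs, Ldhc, Bpgm and Pklr each lost the call without any 1 of the lymphoma replicates, at 0.0548 to 0.145. Of 9 genes of gluconeogenesis and of the phosphofructokinase activator none rose and 4 fell over all fractions. Pck2, the mitochondrial enzyme that makes phosphoenolpyruvate, was at 9.62, 9.49 and 8.83 in LSK and 6.40 to 7.56 in the lymphoma (-2.34, adjusted p = 1.06e-05), and by the mean of all fractions Fbp1 was the 1 gluconeogenic gene read here that rose. In single fractions Fbp2, the muscle form, also rose, by 0.60 in CLP (adjusted p = 0.0302 by limma) and 0.50 in DN4 (0.0161), with 11 of 15 lymphoma arrays above background. Pfkfb2 (-0.69) and G6pc3 (-0.49, lost without lymphoma replicate 1 or 3, at 0.0698 and 0.0659) fell as well.

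Of 13 other transporters 2 rose and 4 fell. Slc2a9, a urate transporter of the glucose transporter family, was at least 2.41-fold higher, Slc2a8 rose by 0.94, while Slc2a6 fell by 0.55 and Slc2a10 by 0.44, a call lost without any 1 lymphoma replicate or LSK replicate 1 or 3 (0.0548 to 0.103). Emb, a partner of lactate transporters, differed among fractions with a span of 0.88 (adjusted p = 0.00387 by limma, and 0.283 with the mean of its probe sets). Slc16a7 was called lower with all 18 arrays below background. Of 10 genes of pyruvate dehydrogenase and pyruvate entry 2 rose and 4 fell. Pdk4, the kinase of fasting, read 7.36, 7.16 and 9.34 in LSK and was below background on all lymphoma arrays, at least 5.22-fold lower (adjusted p = 0.000884 by limma). Pdk2 (-0.59) and the phosphatase Pdp2 (-0.83) were lower too (Pdp1, with a span of 0.68 among fractions, adjusted p = 0.0189, lost at 0.0594 and 0.0974 without DN1 replicate 1 or 2, also fell), while Mpc1 (0.89), a subunit of the mitochondrial pyruvate carrier, and Pdha1 (0.57), a subunit of the dehydrogenase, rose. Of 7 pentose phosphate genes 1 was called higher, Tktl1, which was below background on all 18 arrays, and 2 fell, Pgd (-0.84) and Rpia (-0.37). Mpc1 (0.0603 to 0.08) and Rpia (0.051 to 0.0748) lost the call without any 1 lymphoma replicate, Pgd without replicate 1 or 3 (0.0606 and 0.0684), Tktl1 without replicate 1 or 2 (0.0577 and 0.0779) and Pdp1 without replicate 1 (0.0586).

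Of 11 other genes of the oxygen sensor 3 rose and 2 fell. Epas1, the second oxygen-regulated subunit, read 6.20, 5.76 and 6.80 in LSK and 8.84 to 10.25, median 9.72, in the lymphoma. It was higher by 3.36 (adjusted p = 3.92e-06 by limma) and differed among fractions with a span of 1.00 (adjusted p = 0.0111). Hif3a, an inhibitory relative, was high in DN1 (6.97, 7.34 and 6.69) and DN2 (6.85, 7.08 and 6.76) against 5.62, 5.42 and 5.56 in LSK, and fell from DN2 to DN3 by 1.20 (adjusted p = 0.00123). Cited2, which competes with the factors for their coactivator, fell by 2.21 (10.96, 10.86 and 10.87 in LSK, 8.29 to 9.32 in the lymphoma, adjusted p = 1.65e-07). Egln2, the third prolyl hydroxylase, differed by 0.07 (interval -0.18 to 0.32) and did not pass in any fraction. Elob (0.52) rose, and Hif1an, the asparaginyl hydroxylase, fell (-0.43, with 5 of 15 lymphoma arrays above background). The Elob call was lost without any 1 lymphoma replicate or without LSK replicate 1 or 2 (0.0568 to 0.154), and the Hif1an call without lymphoma replicate 1 or 3 or LSK replicate 1 (0.0539 to 0.0801).

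Of 30 other hypoxia targets 7 rose and 12 fell, beside 13.1% higher and 15.8% lower over all genes. Their median difference was -0.26 against 0.06 in all genes. Bhlhe40, a repressor, fell by 3.58, from 10.03, 10.03 and 10.78 in LSK to 5.77 to 7.90 in the lymphoma (adjusted p = 7.8e-07 by limma), and was highest in DN1 (span 1.62 among fractions, adjusted p = 3.48e-05). Hmox1, which degrades heme, fell by 3.28, with 8 of 15 lymphoma arrays above background. Flt1, a Vegfa receptor, was above background on 1 of 15 lymphoma arrays and at least 2.345- to 2.455-fold lower in CLP, DN1, DN3 and DN4. Adm, the vasodilator adrenomedullin, rose by 1.73, with a span of 1.51 among the fractions (adjusted p = 0.00121). Car12, a carbonic anhydrase, was at least 2.475-fold higher, and Ddit4, an inhibitor of growth signalling, rose by 1.11. The calls of Kdr and Gbe1, which fell, were each lost in 5 of 6 fits that left out 1 value. Those of Mxi1, which fell, and Gys1, which rose, were lost in 4 of 6, and that of Ppp1r3c, which rose, in 1. Ak4 and Pgf, which fell, were above background on 0 of 15 lymphoma arrays, and Rora and Kdr on 1. Genes of the hypoxia response changed in both directions, and no list was tested as a set.

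**Figure D5:**
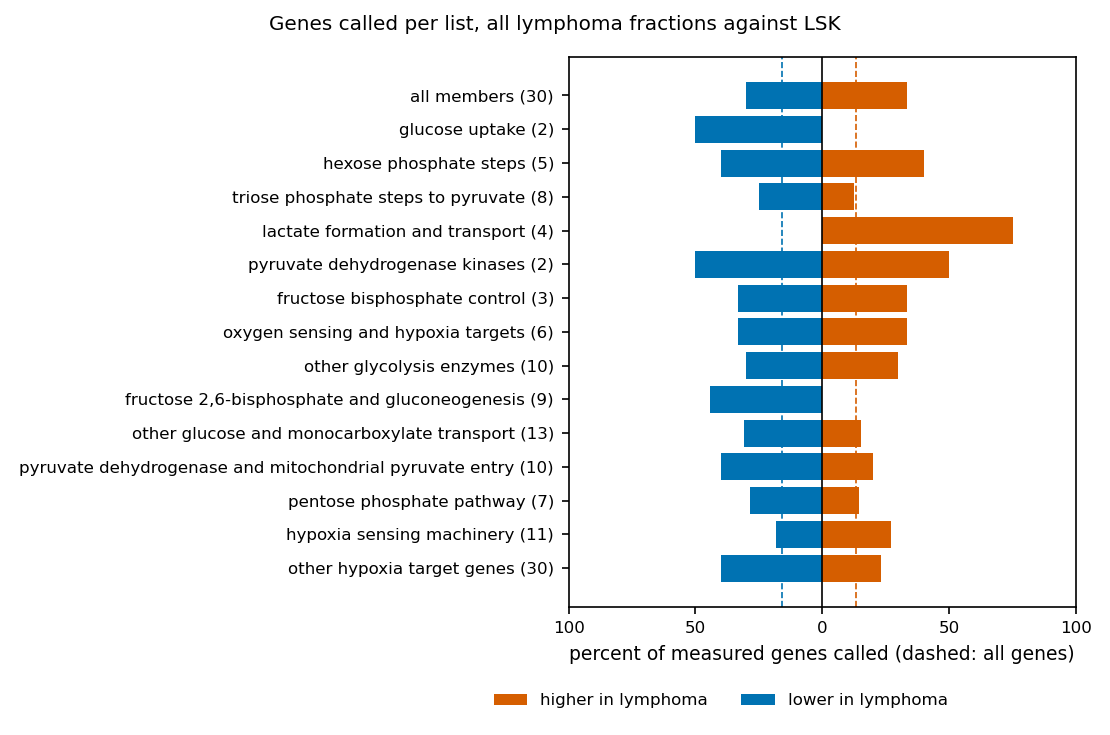
Percent of measured genes called higher (right) or lower (left) in the lymphoma than in LSK, for all 30 genes, for each of their roles and for 7 lists of related genes, with the number measured in parentheses. Dashed lines mark the percent of all genes, 13.1% higher and 15.8% lower.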

How the data were processed

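Per the labels' protocols, RNeasy Micro columns gave the RNA and the WT Pico kit the labelled target. The deposited values are log2 RMA signals that the authors made with oligo, per the submitters' processing notes. Versions and genome build are not given in the sources used here. The table holds 41345 probe sets, of which 23521 carry 1 gene symbol, 1814 several and 16010 none. Names come from GEO's platform annotation. The values were used as deposited, without a filter.

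Tests used limma 3.58.1 in R 4.3.3 (lmFit, then eBayes; two-sided p values with Benjamini-Hochberg adjustment across 22180 genes), with 3 against 3 values for LSK comparisons and 15 arrays for comparisons among fractions. The code was tested on simulated data. Genes, lists and tests were chosen with earlier results of these data known. All members are accounted for; of each related list the text names up to 3 called rises, 3 falls and 2 differences among fractions, by size. Olfactory probe sets (1108) as a gauge of background follow earlier work on these data.

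Alternatives were a filter on low values, quantile normalization, the mean of a gene's probe sets, another prior, a replicate block, 1 model of 18 arrays, and leaving out arrays or fractions.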

Additional observations from a re-analysis of the deposited data

Results flagged for a closer look

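7 genes differed among the lymphoma fractions by the limma F test, given here as the span of fraction means on the log2 scale. The span was 4.44 for Fbp1, 1.92 for Ndrg1, 1.5 for Pfkp, 1.27 for Slc2a3, 0.97 for Slc2a1, 0.89 for Vegfa and 0.65 for Aldoc. The adjusted p values were 6.91e-11, 6.87e-06, 3.76e-05, 0.000111, 0.00542, 0.0015 and 0.0201 in the same order.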

How the results depend on the processing

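The alternatives were applied to listed genes called in any comparison, and to related genes called over all fractions against LSK or by the F test. These gave 181 results and 2731 values under the alternatives, of which 2484 kept direction and call, 247 lost the call and 0 reversed. Of the 19 listed genes called against LSK, 15 stayed called under every alternative, and Pfkl, Pfkm, Ldha and Pdk3 did not. With 18 arrays in 1 model, 6140 genes passed for CLP against LSK, up from 3928. With the mean of probe sets, 1 listed gene changed from DN1 to DN2 in place of 2. When 1 array or value was left out, the number of listed genes called ranged from 15 to 19 for all fractions against LSK, 10 to 16 for CLP, 12 to 17 for DN1, 17 to 19 for DN2, 15 to 17 for DN3, 15 to 16 for DN4, 6 to 8 among fractions, 1 to 4 from DN1 to DN2 (4 without CLP replicate 3), 2 to 3 from DN2 to DN3, and 2 to 5 for CLP against DN1 to DN4. Over all genes the ranges were 4634 to 6825, 2559 to 4598 (lowest without LSK replicate 1), 3460 to 4270, 4572 to 5383, 4154 to 5388, 4766 to 5591, 1409 to 2607, 144 to 437 (lowest without DN2 replicate 2, and 168 without DN2 replicate 3), 373 to 652 and 609 to 1939 (lowest without CLP replicate 2, highest without CLP replicate 1). From DN3 to DN4 they were 0 to 0 listed genes and 1 to 2 genes in all (2 without DN3 replicate 1). The cause of these changes was not tested. Deviations of same-numbered lymphoma arrays correlated at -0.193 to 0.346 (median 0.121, 21 of 30 pairs over 0.1), and those of different numbers at a median of -0.073 (6 of 60). Every same-numbered pair was over 0.1 for DN1 with DN3, DN1 with DN4, DN2 with DN3 and DN3 with DN4. This did not hold for the other pairs of fractions, nor between LSK and any fraction (3 of 15). The main tests used no replicate block, also where every pair was over 0.1. The comparison of all fractions with LSK did take its means by replicate number. With a replicate block 3 listed genes changed from DN2 to DN3 (614 genes in all) and 0 from DN3 to DN4 (1 in all), as many listed genes as without it. From DN1 to DN2 the block gave 3 listed genes (394 genes in all) in place of 2 (300). Quantile normalization gave 3 listed genes in that step, 2 higher and 1 lower. For CLP against DN1 to DN4 the block gave 2 listed genes (1259 genes in all). Elsewhere 18 listed genes passed against LSK (6342 genes in all), 15, 14, 20, 17 and 18 in CLP to DN4, and 7 among fractions (2036 genes in all). With the block Ldha was not called over all fractions (0.0682) or in DN1 (0.0569), nor Slc2a1 in CLP (0.0507), Gapdh in DN3 (0.0504) or Pdk3 in DN3 (0.0596). Signals at background limit the size of the Fbp1, Bnip3 and Eno2 differences.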
